A study of Mus musculus with 10 samples.

Results

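Initiation and elongation factors are the proteins that bring a ribosome to an mRNA, place it on the start codon and then move it along the message. Their genes were read here on 10 Affymetrix arrays of cells sorted from mouse cortex. A gene was included when a probe set carried exactly 1 symbol in the platform annotation and that symbol began with Eif1 to Eif6, Eef1 or Eef2, leaving out the sex-linked copies Eif2s3x and Eif2s3y. The rule found 63 genes among the 22180 with such a probe set, and the brightest probe set by its mean on the 10 arrays stood for each gene. Of the 63, 62 were bright enough to be tested, as were 17712 genes in all. The exception was Eif4e1b, a cap-binding protein, which read 4.98 ± 0.05 on the arrays labelled FMR1-KO (KO-labelled arrays) and 4.95 ± 0.08 on Control arrays (SD, n = 5 each) on the log2 scale, below the cutoff of 5.32 for dim probe sets. The factors Eif2s1, Eif3g and Eif4g1 were not analysed here.

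The arrays fell into 2 groups of 5, labelled FMR1-KO and Control, where Control stands for wild-type mice. All 10 were labelled as cortex of 8-week-old mice and as astrocytes taken by fluorescence-activated sorting for an EGFP reporter. The labels name neither the promoter of the reporter nor the Fmr1 allele. They call replicates biological without saying whether each was 1 animal or a pool, so the p-values cover only the spread seen among these arrays, which may be technical.

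Initiation begins when eIF2 carries the initiator tRNA to the small ribosomal subunit, with eIF2B recharging eIF2 after each round. eIF3 holds the complex together, the eIF4 factors bind the cap of the mRNA and unwind it, and eIF5 and eIF5B bring about the last steps before the large subunit joins. Elongation factors then deliver each further tRNA and shift the ribosome. FMRP, the product of Fmr1, is an RNA-binding protein that slows translation of many of its targets, and it can act on the cap through CYFIP1, a partner that binds eIF4E.

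The Fmr1 probe set did not read lower under the FMR1-KO label. Its level was 8.32, 8.38, 8.26, 8.15 and 8.01 on KO-labelled arrays 1 to 5, against 8.28, 7.60, 8.03, 8.17 and 8.10 on Control arrays 1 to 5, a difference of 0.19 ± 0.13 (SE, adjusted p = 0.704), and whether the probes lie in the disrupted part is not known here. For that reason the group is named by its label. Xist was high on Control arrays 2 and 3 alone, at 10.60 and 10.98 against 4.98 to 5.23 on the other 8, and the Y-linked factor Eif2s3y was low on those same arrays, at 5.18 and 5.02 against 8.11 to 8.80. The Y-linked Uty read 4.82 and 4.77 there, and Kdm5d 4.86 and 4.83. By these genes Control arrays 2 and 3 read as female and the other 8 as male, so sex was not balanced between the groups. The mean of 14 measured microglia markers ran from 9.44 to 10.9 on the KO-labelled arrays and from 10.1 to 11.2 on the Controls, with KO-labelled arrays 2 and 1 and Control array 1 the 3 lowest in that order. The mean of 15 astrocyte markers ran from 9.84 to 10.8 and from 9.66 to 10.4 in the same order, so both cell types were read. Averaged over arrays, the microglia mean was 10.33 on KO-labelled and 10.89 on Control arrays, and the astrocyte mean 10.28 and 9.90. Each of the 14 microglia markers averaged lower and each of the 15 astrocyte markers higher in the KO-labelled arrays, so these markers differed with the label. Of the other fixed lists, 9 neuronal markers had means of 6.22 to 6.43 and 6.24 to 6.45, 9 oligodendrocyte markers 6.43 to 6.70 and 6.40 to 6.68, and 10 vascular markers 6.90 to 7.15 and 6.82 to 7.38. The 7 choroid plexus and ependymal markers had means of 7.96 to 9.08 on KO-labelled and 8.33 to 9.21 on Control arrays. Averaged over arrays that list mean was 8.53 and 8.81, and each of the 7 averaged lower in the KO-labelled arrays. The vascular mean was 6.99 and 7.15, with single markers differing by -0.45 for Flt1 to 0.58 for Pdgfrb. In the same order the neuronal mean was 6.33 and 6.34 and the oligodendrocyte mean 6.58 and 6.55. In such bulk material fewer cells of a type and less RNA per cell cannot be told apart, and the part of these markers in the results below was not tested.

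Factor genes as a group lay slightly on the lower side in the KO-labelled arrays, and none passed the test. Of the 62, 45 had a lower and 17 a higher mean, or 72.6% lower, beside 53.2% of all genes tested. Their median difference, KO-labelled minus Control on the log2 scale, was -0.10, beside -0.01 for all genes. A difference of 0.2 on this scale is 1.15-fold, and 11 of the 62 genes (17.7%) lay below -0.2, beside 10.9% of all genes. The differences were small, running from -0.47 for Eef1b2 to 0.31 for Eif4a3l1. At an adjusted p under 0.05 limma called 0 of the 62, where it called 0% of all genes, and the smallest adjusted p of any factor was 0.654.

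Before adjustment, p was under 0.05 for 5 lower factors (8.06%), beside 3.53% of all genes, and for 2 higher ones (3.23%), beside 4.0% of all genes. The lower ones were Eef1b2, Eef1a1, Eif4g2, Eif3f and Eif3k, and the higher ones Eif4g3 and Eif4a3l1. The 2 groups of arrays did not overlap for 2 factors, Eef1b2 and Eif4g3 (3.23%), beside 0.965% of all genes. Without KO-labelled array 5 the lower count was 2 (3.23%), beside 2.82% of all genes in that fit, and it was 3 (4.84%) without Control array 4, beside 2.34%, and 3 (4.84%) without Control array 5, beside 2.68%. The lower count was also 2 (3.23%) after scaling to equal medians, beside 3.06% of all genes, and with trend and robust settings of eBayes, beside 3.37%. In these 2 fits and without KO-labelled array 5 the share of lower factors was near that of all genes, while without Control array 4 or 5 it stayed above. Without Control array 1 the lower count was 4 (6.45%), beside 7.09% of all genes. Without KO-labelled arrays 1 and 2 and Control array 1, the arrays lowest in microglia markers, it was 10 (16.1%), beside 5.57% of all genes. Without the Xist-high Control arrays 2 and 3 it was 9 (14.5%), beside 2.43% of all genes, and the median of all 62 was -0.13. Once the microglia marker mean entered the fit the lower count was 7 (11.3%), beside 2.75% of all genes, and the median -0.08. After quantile normalization it was 8 (12.9%), beside 3.76% of all genes, and with array weights also 8 (12.9%), beside 4.25%. Leaving out KO-labelled array 2 moved the median of all 62 factors to -0.06, as did leaving out Control array 4.

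**Figure D1:**
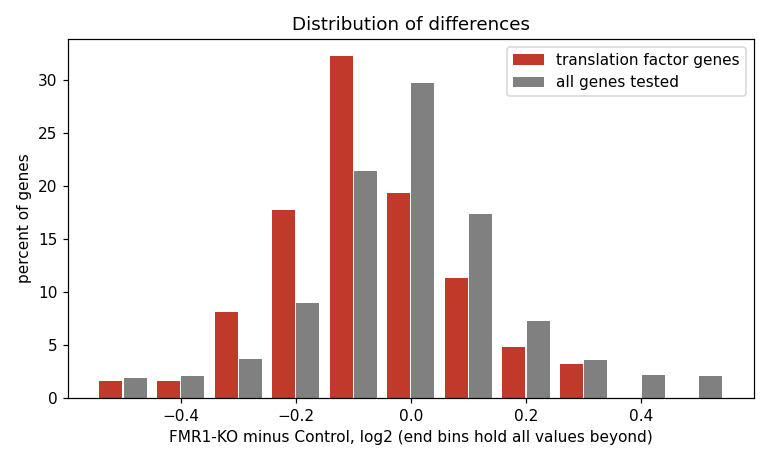
Percent of the 62 factor genes (red) and of all 17712 genes tested (grey) by difference in log2 signal, KO-labelled minus Control, in steps of 0.1. The factor genes were most frequent in the step centred on -0.1, with 32.3% of them, and the genes tested as a whole in the step centred on 0, with 29.7%.

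The lower side did not come from each array alike. On KO-labelled array 5, 50 of the 62 factors (80.6%) read below their Control mean, beside 60.6% of all genes. On KO-labelled arrays 1 to 4 the share was 54.8%, 58.1%, 48.4% and 59.7%, beside 47.0% to 50.8% of all genes. Control arrays themselves ranged widely, with 64.5%, 62.9% and 71.0% of the factors below the Control mean on arrays 1 to 3 and 19.4% and 35.5% on arrays 4 and 5. The mean over the 62 factors was 7.83, 7.77, 7.81, 7.77 and 7.60 on KO-labelled arrays 1 to 5, against 7.81, 7.77, 7.76, 7.93 and 7.89 on Control arrays 1 to 5. The groups overlapped, with KO-labelled array 5 lowest and Control array 4 highest.

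**Figure D2:**
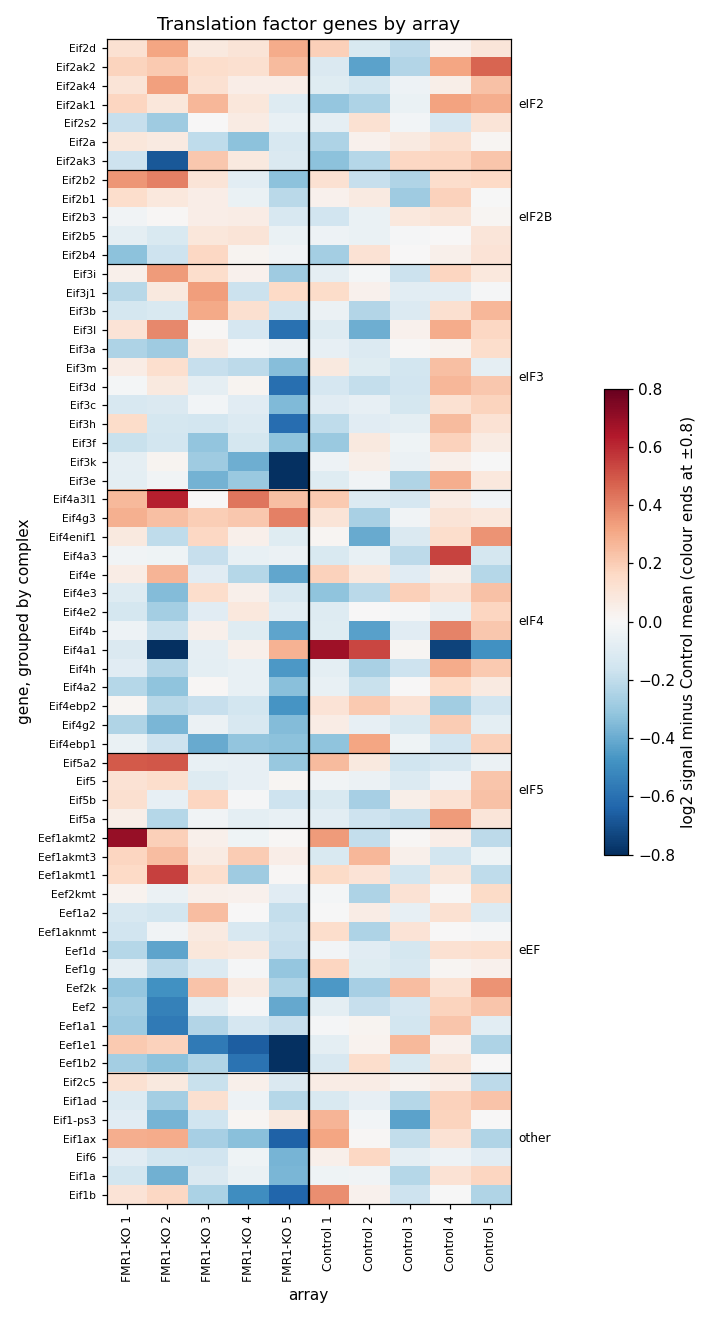
Log2 signal of each tested factor gene minus its Control mean, with KO-labelled arrays left of the line and Control arrays right of it, and genes grouped by complex and ordered by difference. KO-labelled array 5 is blue in most rows (50 of 62 below the Control mean), and Control array 4 is mostly red (12 of 62 below it).

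The eIF2 group held 7 genes, 1 for a subunit of eIF2, 4 for its kinases and 2 for alternatives to it. Of these, 4 averaged higher and 3 lower, and none had an unadjusted p under 0.05. The median difference of 0.10 is that of the kinase gene Eif2ak1, so it does not describe eIF2 itself. Eif2s2, the beta subunit of eIF2, differed by -0.09 ± 0.09 (SE). Eif2d, which can deliver the initiator tRNA without eIF2, read 7.40, 7.59, 7.35, 7.38 and 7.57 on KO-labelled arrays 1 to 5, against 7.47, 7.15, 7.07, 7.31 and 7.37 on Control arrays 1 to 5. It was above the Control mean on all 5 KO-labelled arrays, though the groups overlapped, and differed by 0.18 ± 0.10 (SE, adjusted p = 0.669). Its difference was 0.0736 without Control arrays 2 and 3 and 0.0979 once the microglia marker mean entered the fit. Eif2a, another alternative to eIF2 and not its alpha subunit, differed by -0.10 ± 0.10.

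Kinases of eIF2 shut down most initiation under stress, and 3 of the 4 averaged higher in the KO-labelled arrays. Eif2ak4 (GCN2), the sensor of missing amino acids, read 7.59, 7.81, 7.61, 7.54 and 7.54 on the KO-labelled arrays and 7.39, 7.34, 7.45, 7.54 and 7.72 on the Controls. All 5 KO-labelled arrays lay above the Control mean, with array 2 highest, Control array 5 inside their range and Control array 4 level with the lowest of them, and the difference was 0.13 ± 0.09 (SE, adjusted p = 0.713). It was 0.0833 without KO-labelled array 2, 0.0599 with array weights, 0.0700 without Control arrays 2 and 3, and 0.0528 without the 3 arrays low in microglia markers. Eif2ak3 (PERK), which answers to unfolded protein in the endoplasmic reticulum, read 7.14, 6.63, 7.52, 7.38 and 7.19 in the KO-labelled group, against 6.97, 7.07, 7.47, 7.47 and 7.53 in the Control group. Its groups overlapped throughout, at -0.13 ± 0.17 (SE, adjusted p = 0.854), and its sign turned once the microglia marker mean entered the fit, to 0.15. Eif2ak2 (PKR), the sensor of double-stranded RNA, was even among KO-labelled arrays, at 7.51 to 7.64, and spread from 6.95 to 7.85 among Controls. The haem-regulated Eif2ak1 differed by 0.10 ± 0.13 (SE).

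The 5 genes of eIF2B, the exchange factor that the phosphorylated form of eIF2 blocks, lay close to 0. This complex is known in the brain for a white matter disease that affects astrocytes. Their differences ran from -0.07 to 0.09, with a median of -0.01 and 2 higher and 3 lower means. Eif2b5, the catalytic subunit, read 6.80, 6.76, 6.96, 6.98 and 6.82 on KO-labelled arrays 1 to 5, against 6.84, 6.82, 6.87, 6.88 and 6.97 on Control arrays 1 to 5. Between the groups it differed by -0.01 ± 0.08 (SE, adjusted p = 0.976), with a 95% interval of -0.18 to 0.15, and its sign turned in 6 of 21 alternatives. Only 3.74% of all genes tested varied as little or less within the groups, and Eif2b3, the other catalytic subunit, was at 6.48% by the same measure.

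Regulatory subunits of eIF2B varied more. Eif2b4 read 6.04, 6.20, 6.54, 6.39 and 6.34 on the KO-labelled arrays and 6.10, 6.48, 6.37, 6.41 and 6.48 on the Controls, with the lowest value of each group on array 1, and differed by -0.07 ± 0.11 (SE, adjusted p = 0.896). For Eif2b2 the levels were 7.30, 7.35, 7.05, 6.86 and 6.62 in the KO-labelled group, against 7.07, 6.76, 6.71, 7.09 and 7.11 in the Control group, high on KO-labelled arrays 1 and 2, and the difference was 0.09 ± 0.15 (SE, adjusted p = 0.897). Both signs turned once the microglia marker mean entered the fit, to 0.08 for Eif2b4 and -0.08 for Eif2b2. Eif2b1 read 6.24 in both group means.

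**Figure D3:**
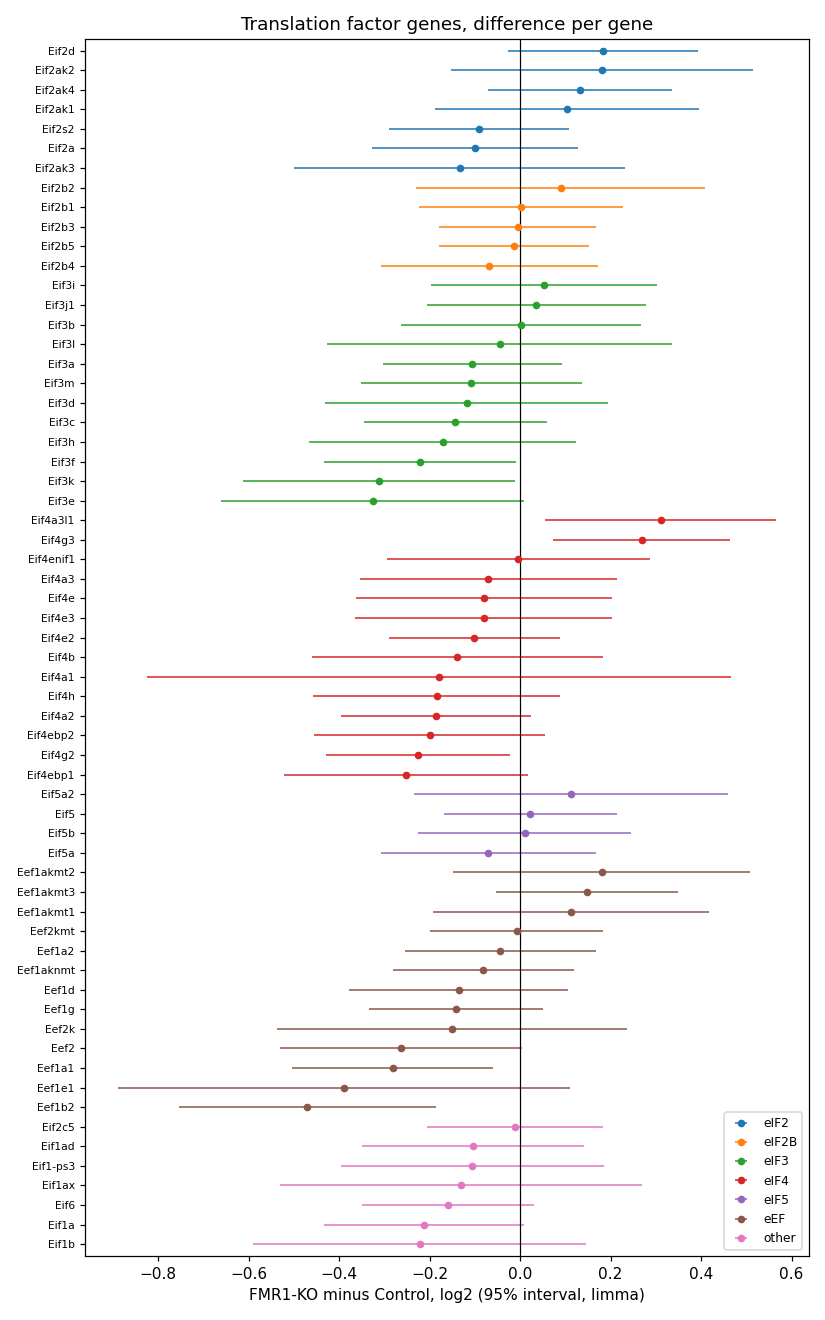
Difference in log2 signal, KO-labelled minus Control, of each of the 62 tested factor genes with its 95% interval from limma, grouped and coloured by complex. The intervals of Eef1b2, Eef1a1, Eif3f, Eif3k, Eif4g2, Eif4g3 and Eif4a3l1 leave out 0, and 0 genes passed after adjustment over all genes.

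Of the 12 measured eIF3 genes, 9 averaged lower and 3 higher, at a median difference of -0.11. All 8 measured genes of the octamer core (Eif3a, Eif3c, Eif3e, Eif3f, Eif3h, Eif3k, Eif3l and Eif3m) had a lower mean, with a median of -0.16, while the outer subunits Eif3b, Eif3i and Eif3j1 had means 0.00 to 0.05 higher and Eif3d one that was lower. Without KO-labelled array 5 the octamer median was -0.10 with 7 of 8 lower, and without Control array 4 it was -0.11, also with 7 lower. Without the 3 arrays low in microglia markers it was -0.30, with 8 lower.

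Eif3f, a core subunit with a deubiquitinase-like fold, read 7.97, 8.00, 7.84, 8.01 and 7.83 on KO-labelled arrays 1 to 5, against 7.85, 8.23, 8.12, 8.33 and 8.22 on Control arrays 1 to 5. All KO-labelled arrays lay below the Control mean, with Control array 1 inside their range, and the difference was -0.22 ± 0.10 (SE, adjusted p = 0.654), or -0.33 without the 3 arrays low in microglia markers. Eif3k, a small subunit at the edge of the core, read 7.89, 7.98, 7.68, 7.57 and 7.13 on the KO-labelled arrays and 7.92, 8.01, 7.92, 8.00 and 7.96 on the Controls. Controls were tightly grouped between 7.92 and 8.01, KO-labelled arrays 1 and 2 reached or came near them and array 5 lay far below, at a difference of -0.31 ± 0.14 (SE, adjusted p = 0.654). Without KO-labelled array 5 the difference was -0.18, and without the 3 arrays low in microglia markers -0.51.

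The same array was lowest for Eif3e, a subunit that contacts eIF4G. Its levels were 7.15, 7.21, 6.86, 6.94 and 6.38 in the KO-labelled group, against 7.13, 7.20, 6.99, 7.52 and 7.32 in the Control group. KO-labelled arrays 1 and 2 lay among the Controls, so the groups overlapped, and the difference was -0.33 ± 0.15 (SE, adjusted p = 0.655). Without KO-labelled array 5 it was -0.19, and without the 3 arrays low in microglia markers -0.53. Eif3a, the largest subunit and scaffold of the core, read 9.09, 9.06, 9.41, 9.33 and 9.29 on KO-labelled arrays 1 to 5, against 9.28, 9.23, 9.35, 9.37 and 9.48 on Control arrays 1 to 5. It differed by -0.11 ± 0.09 (SE, adjusted p = 0.763), and by 0.00382 once the microglia marker mean entered the fit. Eif3h, Eif3c, Eif3m and Eif3l differed by -0.17, -0.14, -0.11 and -0.05.

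Within the groups most pairs of core subunits moved together from array to array. After each group's mean was taken off, the median Pearson correlation over the 28 pairs of octamer genes was 0.62 across the 10 arrays. Of the 28 pairs 22 were positive, and the lowest was -0.55. The median correlation of the same genes with all other genes tested was 0.07. Pairs within eIF2B had a median of 0.12 (10 pairs), within eIF2 0.18 (21 pairs), within eIF4 0.04 (91 pairs) and within the elongation group 0.11 (78 pairs). The eIF2, eIF4 and elongation groups also hold regulators, so their medians are not those of single complexes. The eIF2 group has 1 subunit of eIF2 and 4 kinases, and the elongation group has 6 modifying enzymes. The median was 0.21 within the eIF5 group (6 pairs) and 0.29 within the outer eIF3 subunits (6 pairs). Within the 9 TOP-mRNA factors described below it was 0.37 (36 pairs), with 88.9% of pairs positive. These values describe 10 arrays that share sorting and labelling steps, and KO-labelled array 5 weighs on them.

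Of 14 tested eIF4 genes, 12 averaged lower and 2 higher, at a median difference of -0.12. The 2 measured scaffold genes went opposite ways. Eif4g3, an eIF4G that bridges the cap-binding protein, the helicase and eIF3, read 9.45, 9.40, 9.36, 9.38 and 9.56 on KO-labelled arrays 1 to 5, against 9.27, 8.90, 9.13, 9.26 and 9.24 on Control arrays 1 to 5. Every KO-labelled array lay above every Control, with Control array 2 the lowest, at a difference of 0.27 ± 0.09 (SE, adjusted p = 0.654) and a 95% interval of 0.07 to 0.46. Eif4g2 (DAP5), a related scaffold that lacks the eIF4E site and serves cap-independent initiation, read 10.11, 9.99, 10.31, 10.22 and 10.01 on the KO-labelled arrays and 10.41, 10.29, 10.23, 10.56 and 10.28 on the Controls.

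All 5 KO-labelled arrays were below the Control mean of Eif4g2, with KO-labelled array 3 inside the Control range, and the difference was -0.23 ± 0.09 (SE, adjusted p = 0.654). Both scaffolds kept their sign in all 21 alternatives, between 0.17 and 0.30 for Eif4g3 and between -0.29 and -0.16 for Eif4g2, and neither passed the adjusted threshold in any. The log2 signal of Eif4g3 minus that of Eif4g2 on the same array was -0.67, -0.59, -0.95, -0.84 and -0.45 on the KO-labelled arrays, against -1.15, -1.39, -1.10, -1.30 and -1.04 on the Controls. That difference between probe sets did not overlap between the groups, but neither did Eif4g3 alone, so it is not a separate result. It was chosen after the values were seen, so it is given with no test, and it is not a ratio of mRNA amounts.

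**Figure D4:**
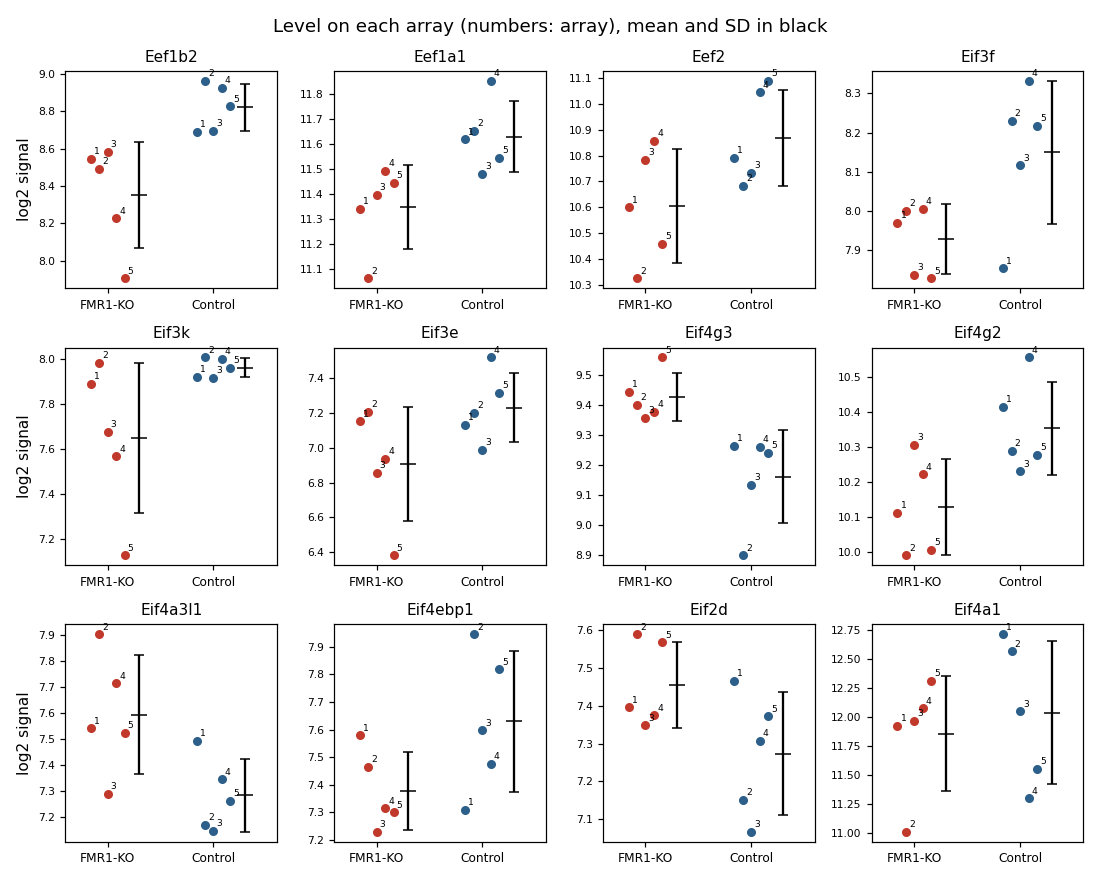
Log2 signal of 12 factor genes on each array, KO-labelled (red) left of Control (blue), with the array number beside each point and the mean and SD in black. Eef1b2 and Eif4g3 show no overlap between the groups, Eif3k and Eif3e are lowest on KO-labelled array 5, and Eif4a1 ranges from 11.01 to 12.71 over all arrays.

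Genes of the cap-binding family came next in the eIF4 group. Eif4e, the cap-binding protein, read 8.07, 8.28, 7.92, 7.78 and 7.59 on KO-labelled arrays 1 to 5, against 8.19, 8.09, 7.92, 8.05 and 7.78 on Control arrays 1 to 5. The groups overlapped, at -0.08 ± 0.13 (SE, adjusted p = 0.896) with a 95% interval of -0.36 to 0.20, and the sign turned without KO-labelled array 5, to 0.00443, and reached -0.27 once the microglia marker mean entered the fit. Eif4e2 (4EHP), which competes for the cap and represses, and Eif4e3 differed by -0.10 ± 0.09 and -0.08 ± 0.13 (SE). All 3 genes had a lower mean.

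Repressors that hold eIF4E until mTOR phosphorylates them were on the lower side too. Eif4ebp1 read 7.58, 7.46, 7.23, 7.31 and 7.30 on the KO-labelled arrays and 7.31, 7.94, 7.60, 7.48 and 7.82 on the Controls. It was below the Control mean on all 5 KO-labelled arrays, with Control arrays 1 and 4 inside their range, and differed by -0.25 ± 0.12 (SE, adjusted p = 0.657). That difference was -0.16 without Control arrays 2 and 3 and -0.43 without the 3 arrays low in microglia markers. Eif4ebp2, the main form in brain, read 8.31, 8.08, 8.11, 8.15 and 7.83 in the KO-labelled group, against 8.40, 8.50, 8.41, 8.02 and 8.14 in the Control group, with Control arrays 4 and 5 inside the KO-labelled range. Its difference was -0.20 ± 0.12 (SE, adjusted p = 0.678), and it was -0.13 without KO-labelled array 5 or with array weights and -0.0917 without Control arrays 2 and 3. Eif4enif1 (4E-T), which carries eIF4E into the nucleus and to P-bodies, averaged 7.19 in both groups.

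Among the helicases, Eif4a2 read 9.46, 9.37, 9.70, 9.63 and 9.36 on KO-labelled arrays 1 to 5, against 9.63, 9.51, 9.69, 9.85 and 9.76 on Control arrays 1 to 5, at -0.19 ± 0.10 (SE, adjusted p = 0.664), or -0.10 once the microglia marker mean entered the fit. Its 3 probe sets differed by -0.19, -0.26 and -0.14. Eif4a1, which unwinds the 5′ end of the mRNA, read 11.92, 11.01, 11.96, 12.07 and 12.31 on the KO-labelled arrays and 12.71, 12.57, 12.05, 11.30 and 11.55 on the Controls, a within-group spread wider than that of 98.3% of all genes tested. The difference was -0.18 ± 0.30 (SE, adjusted p = 0.898), and it turned sign in 4 of 21 alternatives, among them 0.0328 without KO-labelled array 2, 0.13 with array weights and 0.25 without the 3 arrays low in microglia markers. A second, dimmer probe set of Eif4a1 read 7.94, 7.79, 8.25, 8.23 and 8.36 on the KO-labelled arrays and 7.89, 8.22, 8.11, 8.60 and 8.51 on the Controls, a difference of -0.15. In that one Control array 1 was the lowest Control, where it was the highest in the brighter probe set, so the probe sets disagree in the order of Controls and single values of Eif4a1 are uncertain.

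Eif4a3l1, named as a relative of the exon junction helicase Eif4a3, had the highest difference of the 62. It read 7.54, 7.90, 7.29, 7.71 and 7.52 on KO-labelled arrays 1 to 5, against 7.49, 7.17, 7.15, 7.35 and 7.26 on Control arrays 1 to 5. KO-labelled arrays 2 and 4 stood above the rest, array 3 lay within the Controls, and the difference was 0.31 ± 0.12 (SE, adjusted p = 0.654), or 0.17 once the microglia marker mean entered the fit. Eif4a3 itself differed by -0.07 ± 0.13 (SE). Near-identical copies can share probes, so both are uncertain. The helicase cofactors Eif4b and Eif4h differed by -0.14 ± 0.15 and -0.18 ± 0.13.

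The 4 genes of the eIF5 group lay near 0, with a median difference of 0.02. Eif5, which triggers GTP hydrolysis on eIF2 at the start codon, read 9.22, 9.25, 9.01, 9.04 and 9.13 on KO-labelled arrays 1 to 5, against 9.08, 9.06, 9.001, 9.07 and 9.33 on Control arrays 1 to 5, with Control array 5 standing above the rest. It differed by 0.02 ± 0.09 (SE, adjusted p = 0.961) and turned sign in 7 of 21 alternatives. Eif5b, which joins the large subunit, differed by 0.01 ± 0.11 (SE).

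Eif5a, the hypusine-bearing factor that helps the ribosome through difficult peptide bonds, read 8.33, 8.06, 8.26, 8.21 and 8.23 on the KO-labelled arrays and 8.20, 8.12, 8.10, 8.63 and 8.38 on the Controls, at -0.07 ± 0.11 (SE, adjusted p = 0.888), or 0.0150 without Control array 4. Its paralog Eif5a2 read 7.33, 7.33, 6.77, 6.77 and 6.54 in the KO-labelled group, against 7.09, 6.92, 6.68, 6.71 and 6.79 in the Control group. KO-labelled arrays 1 and 2 were highest, as for Eif2b2, and KO-labelled array 5 was the lowest of all. The difference was 0.11 ± 0.16 (SE, adjusted p = 0.876), and it was 0.0183 without KO-labelled array 1, 0.0170 without KO-labelled array 2, 0.22 without KO-labelled array 5 and -0.14 once the microglia marker mean entered the fit.

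All 6 elongation factors proper had a lower mean in the KO-labelled arrays. Eef1b2, the exchange factor that recharges eEF1A with GTP, had the lowest difference of the 62 genes. It read 8.55, 8.49, 8.58, 8.23 and 7.91 on KO-labelled arrays 1 to 5, against 8.69, 8.96, 8.70, 8.93 and 8.83 on Control arrays 1 to 5. Every KO-labelled array lay below every Control, with arrays 4 and 5 lowest, at a difference of -0.47 ± 0.13 (SE, adjusted p = 0.654) and a 95% interval of -0.75 to -0.19. By unadjusted p it ranked 54 of 17712 genes, and without KO-labelled array 5 it was -0.36.

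Eef1a1, which carries the tRNA to the ribosome, read 11.34, 11.06, 11.40, 11.49 and 11.45 on the KO-labelled arrays and 11.62, 11.65, 11.48, 11.85 and 11.54 on the Controls. All KO-labelled arrays were below the Control mean and array 2 was lowest, with Control array 3 just inside the KO-labelled range. The difference was -0.28 ± 0.10 (SE, adjusted p = 0.654), and a second probe set gave -0.24. Without the 3 arrays low in microglia markers it was -0.19. Copies of this gene are many in the genome and its values are uncertain for that reason. Its paralog Eef1a2, known from neurons and muscle, read 6.59, 6.57, 6.96, 6.72 and 6.52 in the KO-labelled group, against 6.71, 6.77, 6.65, 6.84 and 6.60 in the Control group, at -0.04 ± 0.10 (SE, adjusted p = 0.927), and its sign turned in 3 of 21 alternatives.

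Eef2, which moves the ribosome 1 codon on, read 10.60, 10.33, 10.78, 10.86 and 10.46 on KO-labelled arrays 1 to 5, against 10.79, 10.68, 10.73, 11.04 and 11.09 on Control arrays 1 to 5. KO-labelled arrays 3 and 4 lay within the Controls and arrays 1, 2 and 5 below them, at -0.26 ± 0.12 (SE, adjusted p = 0.654), or -0.13 once the microglia marker mean entered the fit. The other exchange subunits Eef1d and Eef1g differed by -0.14 ± 0.11 and -0.14 ± 0.09 (SE). Eef2k, the kinase that stops eEF2 and is known in synaptic signalling, read 8.23, 8.05, 8.77, 8.60 and 8.29 on the KO-labelled arrays and 8.08, 8.27, 8.78, 8.66 and 8.90 on the Controls. The 3 arrays low in microglia markers held its lowest values, and it differed by -0.15 ± 0.18 (SE, adjusted p = 0.839). With the marker mean as a covariate its sign turned, to 0.13.

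Of 6 genes for enzymes that modify elongation factors, Eef2k included, 3 had a higher and 3 a lower mean. The methyltransferases Eef1akmt1, Eef1akmt2 and Eef1akmt3 differed by 0.11 ± 0.14, 0.18 ± 0.15 and 0.15 ± 0.09, and Eef1aknmt and Eef2kmt by -0.08 ± 0.09 and -0.01 ± 0.09 (SE). Eef1e1, a scaffold of the tRNA synthetase complex despite its symbol, read 7.84 and 7.81 on KO-labelled arrays 1 and 2 and 7.06, 6.96 and 6.51 on arrays 3 to 5, against 7.38 to 7.88 on the Controls. Its difference was -0.39 ± 0.23 (SE).

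The elongation factors proper and the eIF3 subunits e, f and h are known in human cells for mRNAs that open with a run of pyrimidines, the 5′ terminal oligopyrimidine (TOP) feature through which mTOR controls translation. Each of the 9 genes on that list averaged lower, at a median of -0.22, beside -0.08 for the 53 other tested factors and -0.01 for all genes. The list was chosen with earlier results of these data known. Its genes also varied together within the groups, at a median correlation of 0.37, so the 9 are not separate observations. Eef1b2, Eef1a1 and Eif3f, already among the lower factors counted above, had an unadjusted p under 0.05. They are 3 of the 9 (33.3%), all lower, beside 3.53% of all genes. That count was 1 with trend and robust settings (3.37% of all genes), 2 after scaling to equal medians (3.06%), and 2 without KO-labelled array 5 (2.82%), without Control array 4 (2.34%) or without Control array 5 (2.68%). It was 2 once the microglia marker mean entered the fit (2.75%) and 5 without Control arrays 2 and 3 (2.43%). On KO-labelled arrays 1 to 5 the list mean was 8.40, 8.28, 8.43, 8.42 and 8.11, against 8.48, 8.54, 8.43, 8.72 and 8.61 on Control arrays 1 to 5. Control array 3 lay level with KO-labelled arrays 3 and 4, and KO-labelled array 5 was lowest. The median ran from -0.28 to -0.17 over the 21 alternatives. All 9 stayed lower in 18 of them, and 8 of 9 were lower with array weights, without the 3 arrays low in microglia markers and with the marker mean in the fit.

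For 5 of these 9 genes a start window from RefSeq (GRCm38.p6) was used here, and its 30 bases, 15 before the start and 15 from it on, are shown to let the TOP feature be looked for. Capitals mark the longest run that opens with C and goes on with at least 4 bases of C or T, searched on the gene's strand alone.
Eef1a1: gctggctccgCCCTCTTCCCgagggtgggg
Eef1a2: tCTCTCCTggtctgcgttctcgctcactgg
Eef1b2: tggacctgcagttccgccggaagtagccga
Eef2: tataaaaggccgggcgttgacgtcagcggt
Eif3f: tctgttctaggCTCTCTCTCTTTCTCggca
The windows lie at chr9:78481710-78481739, minus strand, chr2:181157001-181157030, minus strand, chr1:63176816-63176845, plus strand, chr10:81176616-81176645, plus strand, and chr7:108934400-108934429, plus strand. A run was in 3 of the 5 windows, of 10 bases in Eef1a1, 7 in Eef1a2 and 15 in Eif3f, and such runs were in 36.4% of the 32851 windows of all genes and in 18 of the 48 factors with a window. The run in Eef1a2 ended before the annotated start, while those in Eef1a1 and Eif3f crossed it. In Eif3f a run also opened at the first base, as in 2.51% of all windows. The annotated starts were not checked against start-site data, so a missing run shows only that these letters are not in the window.

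**Figure D5:**
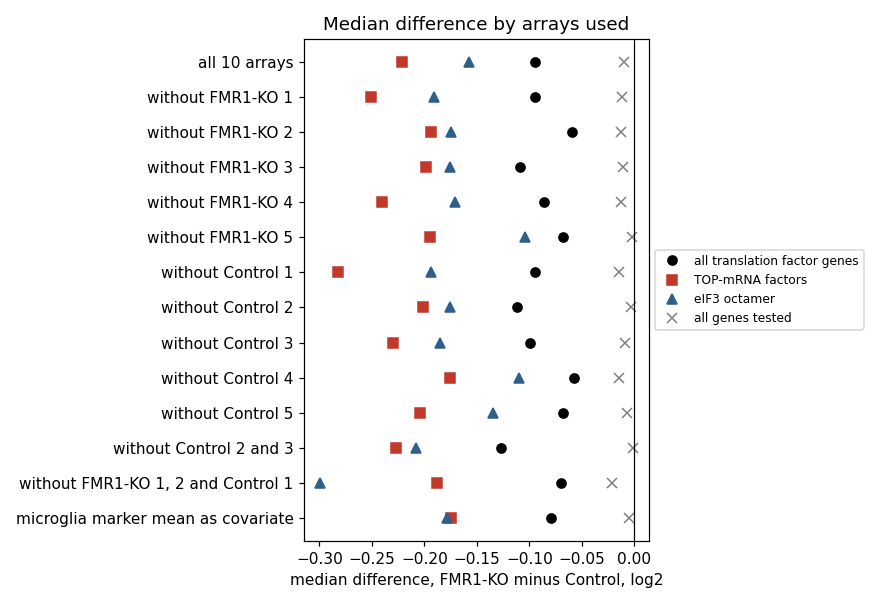
Median difference in log2 signal, KO-labelled minus Control, of all tested factor genes (circles), the 9 TOP-mRNA factors (squares), the 8 octamer genes of eIF3 (triangles) and all genes (crosses), with all arrays, without the arrays named, or with the mean of the microglia markers in the fit. With all arrays the medians were -0.10, -0.22, -0.16 and -0.01, and those of the factors stayed below 0 in each row shown.

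The 7 remaining genes, which include factors of scanning and subunit joining, a pseudogene and a noncoding RNA, all averaged lower, at a median of -0.13. Eif1a, which helps the small subunit scan, read 7.06, 6.82, 7.09, 7.15 and 6.84 on KO-labelled arrays 1 to 5, against 7.17, 7.18, 6.98, 7.32 and 7.38 on Control arrays 1 to 5. All KO-labelled arrays were below the Control mean, with Control array 3 inside their range, at -0.21 ± 0.10 (SE, adjusted p = 0.655). Eif6, which keeps a free large subunit from joining, read 7.39, 7.33, 7.33, 7.45 and 7.11 on the KO-labelled arrays and 7.52, 7.65, 7.41, 7.44 and 7.39 on the Controls. KO-labelled arrays 2, 3 and 5 lay below all Controls, array 5 farthest, and the difference was -0.16 ± 0.09 (SE, adjusted p = 0.672), or -0.0849 with array weights.

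Eif1b, a start codon selection factor, differed by -0.22 ± 0.17 and the X-linked Eif1ax by -0.13 ± 0.18 (SE). Eif1ax read 8.14 and 7.93 on the Xist-high Control arrays 2 and 3, inside the range of 7.89 to 8.44 on the other Controls. The 3 arrays low in microglia markers held the highest values of Eif1ax. Eif1ad, the pseudogene Eif1-ps3 and Eif2c5, annotated as a long noncoding RNA, differed by -0.10 ± 0.11, -0.11 ± 0.13 and -0.01 ± 0.09.

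A list of genes whose products work with these factors was taken beside them. Of its 45 entries 39 were tested, 26 averaging lower and 13 higher, at a median of -0.04 and 0 past the adjusted threshold. Those with an unadjusted p under 0.05 numbered 4 (10.3%), all lower, beside 3.53% of all genes. Tpt1, whose own mRNA is of the TOP class, read 8.73, 8.31, 8.87, 8.90 and 8.67 on KO-labelled arrays 1 to 5, against 9.08, 9.39, 9.09, 9.41 and 9.07 on Control arrays 1 to 5. The groups did not overlap, at -0.51 ± 0.12 (SE, adjusted p = 0.654).

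Denr, which recycles small subunits and aids reinitiation, read 7.28, 7.26, 7.45, 7.33 and 7.28 on the KO-labelled arrays and 7.44, 7.60, 7.66, 7.68 and 7.60 on the Controls. Only KO-labelled array 3 reached the lowest Control, and the difference was -0.27 ± 0.08 (SE, adjusted p = 0.654). Atf4, the transcription factor that phosphorylated eIF2 lets through to translation, read 8.48, 8.48, 8.67, 8.67 and 8.68 in the KO-labelled group, against 8.63, 9.04, 8.80, 9.22 and 9.07 in the Control group. All KO-labelled arrays were below the Control mean, with Control array 1 inside their range, at -0.36 ± 0.11 (SE, adjusted p = 0.654), or -0.23 once the microglia marker mean entered the fit.

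Ddx3x, an X-linked helicase of long 5′ leaders, read 9.23, 9.14, 9.31, 9.43 and 9.64 on KO-labelled arrays 1 to 5, against 9.37, 9.76, 9.66, 9.77 and 9.84 on Control arrays 1 to 5, with Control array 1 inside the KO-labelled range. It differed by -0.33 ± 0.12 (SE, adjusted p = 0.654), or by -0.18 once the microglia marker mean entered the fit. Pabpc1, the poly(A)-binding partner of eIF4G, read 7.36, 7.14, 7.55, 7.55 and 7.59 on the KO-labelled arrays and 7.32, 7.62, 7.75, 7.86 and 8.10 on the Controls, lowest on KO-labelled array 2, and differed by -0.29 ± 0.14 (SE, adjusted p = 0.656). Once the microglia marker mean entered the fit, its difference was -0.08. All 5 of these partners kept their sign in 21 alternatives, and none passed the adjusted threshold there.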

How the data were processed

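RNA was read on 10 Affymetrix whole-transcript arrays, 5 labelled FMR1-KO and 5 labelled Control, after amplification as cDNA, per the labels' protocols. The values the authors deposited are log2 signals per probe set, from 4.31 to 13.9 with array medians of 6.11 to 6.24; this scale was read from the values. GeneSpring 13.1.1 is named for the comparison per the series' design text, while the background correction and the normalization are steps not given in the sources used here.

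Of 33793 probe sets, 23521 had 1 symbol, 1814 several and 8458 none listed. The brightest probe set stood for a gene, which mattered for 4 factors, and genes with a mean below the 25th percentile (5.32) were left out. Gene IDs of all 63 factors matched RefSeq (GRCm38.p6). The 2 groups were compared with limma 3.58.1 (lmFit, eBayes) under R 4.3.3, with two-sided p-values Benjamini-Hochberg adjusted over 17712 genes at 0.05. A check of the test on simulated data used changes larger than any factor difference here, so it does not cover changes of this size. The number of arrays limits the precision.

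Members, lists and alternatives were chosen with earlier results of these data known, and the split of complexes into subgroups was made by role. Genes named were a list of 20, of which 18 had a probe set with 1 symbol, the 2 of each complex with the smallest unadjusted p, and any whose groups did not overlap; of the partners, the 3 with the smallest p and Pabpc1, Atf4 and Ddx3x. Others are given as values for completeness. Alternatives were quantile or equal-median scaling, other dim filters, the mean of probe sets, trend and robust eBayes, array weights, the replicate block, left-out arrays and the mean of the microglia markers as a covariate.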

Additional observations from a re-analysis of the deposited data

Results flagged for a closer look

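In groups of 5, a highest or lowest array was noted when its gap to the nearest other exceeded 0.71 of the group's range, Dixon's critical value, which chance exceeds in about 1 of 20 groups. Among 84 groups of 5 values, 4 did. The mean over all 62 factors was 7.60 on KO-labelled array 5 and 7.77 to 7.83 on the other 4. Eif2ak4 read 7.81 on KO-labelled array 2 and 7.54 to 7.61 on the other KO-labelled arrays. For Eif5 the highest Control was array 5, at 9.33, where the other Controls held 9.001 to 9.08. For Eif2b4 the lowest Control was array 1, at 6.10, where the rest held 6.37 to 6.48.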

How the results depend on the processing

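The count of factors past the adjusted threshold was 0 in all 21 alternatives. The count at an unadjusted p under 0.05 was 7 (11.3%, beside 7.53% of all genes). It was 4 after scaling to equal medians (6.45%, beside 6.57%) and 4 with trend and robust settings (6.45%, beside 7.25%), so the excess over all genes was absent in both. It was 11 with array weights (17.7%, beside 8.18%) and 12 without KO-labelled arrays 1 and 2 and Control array 1 (19.4%, beside 8.90%). When 1 array was left out it ran from 4 to 8, with the 4 (6.45%, beside 9.20% of all genes) without KO-labelled array 5. Without Control array 1 alone it was 7 (11.3%, beside 13.7% of all genes). In both of these fits the share of factors was below that of all genes. The count with a higher mean, 17, stayed within 1.5 times in each alternative. The median of all factors, -0.0951 with all arrays, ran from -0.127 to -0.0576 over the alternatives. Each move was smaller than the spread between arrays of 0.0773, but that limit is close to the size of the median, so it says little about stability. Replicate numbers are shared by the groups, but same-numbered arrays did not all deviate together (correlations of 0.53, -0.02, 0.19, 0.00 and 0.15), and of the KO-labelled arrays array 1 was the 1 that correlated best with its own number. With the replicate block the unadjusted count of factors was 7 (11.3%), below the 11.7% of all genes in that fit (2080 genes, against 1334 without the block), so there too the excess was absent. Of 33 genes named by rule, 21 kept their sign in every alternative run. With array weights, the sign turned for Eif2b5 at 0.0291, Eif4a1 at 0.13, Eif5 at -0.0404 and Eef1a2 at 0.0306. Without Control arrays 2 and 3, the sign turned for Eif4a1 at 0.00280, Eif5 at -0.0288 and Eif2b2 at -0.0511. Without KO-labelled arrays 1 and 2 and Control array 1, the sign turned for Eif2b5 at 0.0350, Eif4a1 at 0.25, Eif5 at -0.0566, Eef1a2 at 0.0192, Eif2b2 at -0.0720 and Eif5a2 at -0.0776. Once the microglia marker mean entered the fit, the sign turned for Eif2b5 at 0.0531, Eif2ak3 at 0.15, Eif3a at 0.00382, Eif5 at -0.0300, Eef1a2 at 0.0148, Eef2k at 0.13, Eif2b4 at 0.0816, Eif2b2 at -0.0773 and Eif5a2 at -0.14. Leaving out 1 array gave differences of -0.22 to 0.00260 for Eif2ak3, -0.0414 to 0.0137 for Eif2b5, -0.36 to 0.0328 for Eif4a1, -0.17 to 0.00443 for Eif4e, -0.00790 to 0.0779 for Eif5, -0.12 to 0.0150 for Eif5a. The cause was not tested.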
